A study of Homo sapiens with 4 samples.

Results

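The core genes of the circadian clock were examined in 22Rv1 cells, a human line established from castration-resistant prostate cancer, after exposure to JMC45, a small molecule that targets CDK9. The members were chosen by symbol, current or older: PER1, PER2, PER3, CRY1, CRY2, CLOCK, BMAL1, NR1D1, NR1D2 and DBP, which are 10 of the 63241 genes in the table. All 10 were found, and 8 of them reached the mean of 1 TPM (a length-corrected share of the library) that was asked for before a gene was tested. Cells received 40 nM JMC45 or the DMSO vehicle for 12 h, and each group had 2 poly(A)-selected libraries. The series calls the compound D45 and describes it as a CDK9 degrader, and D45 was taken to be JMC45. Whether the libraries of a group stem from separate cultures is not stated in the labels, and the p-values reflect no more than the spread among these libraries, which may be technical. The labels give a single time point, so position within a daily cycle was not measured, and nothing in them says that the cells were synchronised.

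The clock is a transcriptional feedback loop. CLOCK and BMAL1 form a dimer that binds E-box sequences and activates the PER and CRY genes, whose protein products return to the nucleus and repress that dimer. In a further loop the nuclear receptors REV-ERBα and REV-ERBβ, encoded by NR1D1 and NR1D2, repress BMAL1, while DBP, itself under E-box control, drives output genes through D-boxes. CDK9 is the kinase of P-TEFb, which releases paused RNA polymerase II into elongation, the step that follows the start of transcription.

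Sequences just before the transcription starts show which of these elements the members carry in the window read here. RefSeq promoter entries on GRCh38.p14 were matched by symbol for all 10 genes, in 15 windows because some genes have more than 1 start, and the 250 bases before each start were searched on both strands. These coordinates belong to that reference, since the sources used here give no build for the deposited values. The searched letters were the E-box CACGTG, the related E′-box CACGTT, the D-boxes TTATGTAA and TTACGTAA, the nuclear receptor core AGGTCA and the cyclic AMP element TGACGTCA, and no matches overlapped one another in these windows. CACGTG was found in PER1 and NR1D2, in 2 of the 15 windows, against 6.34% of all 35116 windows. CACGTT was found in CLOCK, CRY1, CRY2, NR1D1 and PER2, in 5 windows, against 4.55% of all windows. TTATGTAA was found in NR1D2 and PER3 (0.834% of all windows), AGGTCA in PER1 and CRY2 (12.1%), and neither TTACGTAA (0.105%) nor TGACGTCA (1.65%) was found in a member's window. Stretches of 30 bases around the E-box, E′-box and D-box matches are shown, as these are among the elements through which the members act on each other. Matched letters are in capitals, read 5′ to 3′ along the gene's strand. AACGTG and TTACATAA are CACGTT and TTATGTAA read on the other strand.
PER1 E-box (chr17:8152560-8152589, strand -): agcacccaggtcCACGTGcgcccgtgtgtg
NR1D2 distal E-box (chr3:23945954-23945983, strand +): ggcgggcggggaCACGTGaggccgctcggc
NR1D2 proximal E-box (chr3:23946004-23946033, strand +): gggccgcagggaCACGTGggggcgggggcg
PER2 E′-box (chr2:238288790-238288819, strand -): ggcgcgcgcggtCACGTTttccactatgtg
CRY1 E′-box (chr12:107093621-107093650, strand -): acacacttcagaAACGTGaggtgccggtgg
CRY2 E′-box (chr11:45847275-45847304, strand +): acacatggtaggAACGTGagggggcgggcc
NR1D1 E′-box (chr17:40100740-40100769, strand -): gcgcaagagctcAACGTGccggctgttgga
CLOCK E′-box (chr4:55546102-55546131, strand -): tcaccactcgggCACGTTtggagcagcgcc
PER3 D-box (chr1:7784103-7784132, strand +): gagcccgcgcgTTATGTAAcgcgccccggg
NR1D2 D-box (chr3:23945916-23945945, strand +): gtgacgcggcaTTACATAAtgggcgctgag

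PER1 is shown over the whole window (chr17:8152405-8152654, strand -), as it holds an E-box 173 bases and a nuclear receptor core (TGACCT, the reverse of AGGTCA) 144 bases before the start.
PER1 promoter: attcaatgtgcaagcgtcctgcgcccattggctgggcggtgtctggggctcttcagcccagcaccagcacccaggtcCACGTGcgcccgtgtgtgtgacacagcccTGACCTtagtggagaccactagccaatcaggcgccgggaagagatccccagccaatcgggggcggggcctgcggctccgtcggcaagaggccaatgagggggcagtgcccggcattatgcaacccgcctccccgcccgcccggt
The windows of BMAL1 and DBP held no match to any of the 6 motifs. A match describes the letters only, and a missing match says nothing beyond this window.

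All samples carried the markers of the labelled cell type. The 7 luminal prostate markers summed to 885.0 and 898.2 TPM in vehicle and 592.6 and 576.9 TPM in JMC45. They did not move alike: HOXB13 went from 95.8 ± 1.14 to 10.3 ± 0.61 TPM and KRT18 from 213.8 ± 10.6 to 43.7 ± 1.85 TPM (SD, n = 2), while FOLH1 was at 269.8 ± 7.26 and 283.1 ± 11.1 TPM and KRT8 at 203.2 ± 7.08 and 162.9 ± 3.61 TPM, and their part in the results below was not tested. The 3 basal markers summed to at most 0.33 TPM, the 3 endothelial markers to at most 0.010 TPM, the 4 leukocyte markers to at most 1.60 TPM and the 4 fibroblast markers to at most 3.64 TPM in any library, and KRT5, CDH5 and CD3E were listed at 0 in all 4. The depth of the libraries is unknown, as TPM does not retain it. Of 14018 genes tested, 11311 were called lower and 596 higher in JMC45 by limma on log2(TPM + 1), and the log2 change of the median gene was -1.10. Because most transcripts lost share, the change of each tested clock gene is also given relative to that median and on rescaled TPM, in which each library is divided by its median-of-ratios factor, so that the median gene stands at -0.02. The values are shares, so fewer transcripts of a gene and more transcripts of others cannot be told apart, nor can fewer cells that express a gene and less of its RNA per cell.

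Of the 8 clock genes tested, 7 fell and none rose, where 80.7% of all genes tested were called lower and 4.25% higher. On log2(TPM + 1), DBP, NR1D2 and CLOCK had the largest decreases and PER2 the smallest. CRY2 was the only tested member with a higher mean in JMC45. The order after DBP depends on the pseudocount. At 0.1 the changes were -3.23 for DBP, -2.19 for CLOCK, -2.05 for BMAL1 and -2.03 for NR1D2. The median change of the 8 was -1.34, beside -1.10 for all genes tested. On rescaled TPM 3 of the 8 fell (CLOCK, NR1D2 and DBP) and 2 rose (PER2 and CRY2), where 35.5% and 34.9% of all genes were called lower and higher. Quantile normalization gave 3 lower and 3 higher (CRY1 in addition), where 32.8% and 33.6% of all genes were. The count of decreases on TPM is therefore close to the background, and what follows is about how the members differed from each other.

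**Figure D1:**
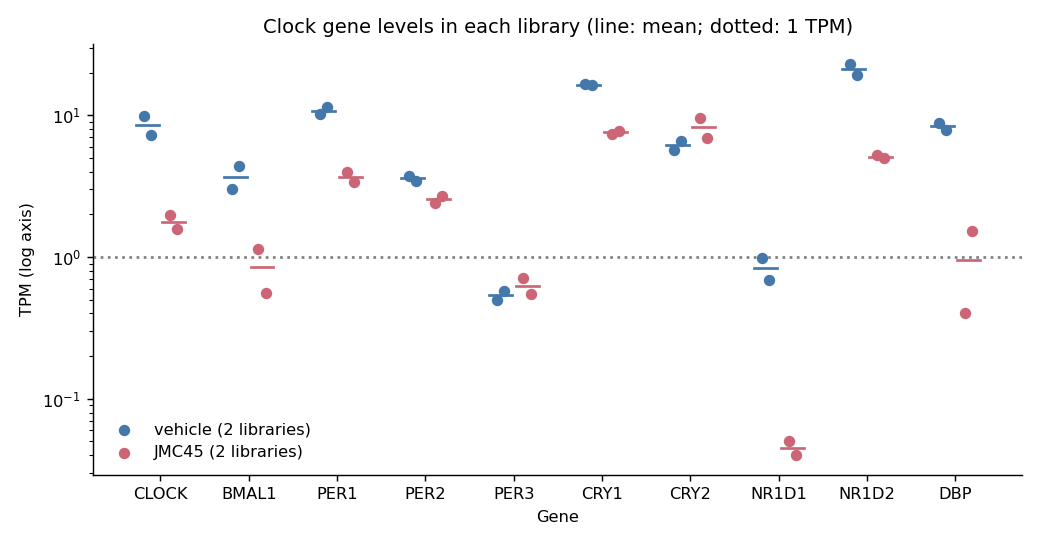
TPM on a log axis for the 10 clock genes in each of the 4 libraries, with points for libraries, a short line for the group mean and a dotted line at 1 TPM. NR1D2 is highest in vehicle at 23.2 and 19.4 TPM, CRY2 is highest in JMC45 by its mean of 8.26 TPM, and NR1D1 drops to 0.050 and 0.040 TPM.

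The activators CLOCK and BMAL1 were both lower in JMC45. CLOCK (ENSG00000134852), a PAS-domain factor with acetyltransferase activity, was at 9.89 and 7.21 TPM in the vehicle libraries and at 1.97 and 1.59 TPM in the JMC45 libraries. Every JMC45 value lay below every vehicle value, and the mean was 4.80-fold lower. CLOCK fell by 1.77 on the log2 scale (SE 0.18, limma adjusted p = 0.000185), which is -0.67 relative to the median gene, and the change was -0.71 on rescaled TPM (SE 0.14, adjusted p = 0.00368).

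BMAL1 (ENSG00000133794), the dimer partner of CLOCK and the member whose loss alone stops the clock in mice, was at 3.03 and 4.36 TPM in vehicle and at 1.14 and 0.56 TPM in JMC45. The groups did not overlap, although the JMC45 libraries differed from each other, with a mean of 0.85 ± 0.41 TPM (SD, n = 2). The mean was 4.35-fold lower, and log2(TPM + 1) understates a change between such low values. BMAL1 fell by 1.35 (SE 0.23, limma adjusted p = 0.00171), or -0.25 relative to the median gene. With a pseudocount of 0.1 its change was -2.05, where the median gene was at -1.34. On rescaled TPM its change of -0.51 was not called (SE 0.24, adjusted p = 0.0943). NPAS2 and BMAL2, paralogs that can stand in for CLOCK and BMAL1, were not called lower: NPAS2 was at 2.72 and 2.13 TPM in vehicle and 2.92 and 0.92 TPM in JMC45, and BMAL2 at 4.97 and 3.92 against 3.89 and 4.08 TPM. The values of each paralog overlapped between the groups. On rescaled TPM BMAL2 was called higher (0.97, SE 0.12, limma adjusted p = 0.000470) and NPAS2 was not called (0.57, SE 0.34, adjusted p = 0.172). Both were named after their values were seen.

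Among the period genes PER1 fell, PER2 was near the edge of the test and PER3 was too low to test. PER1 (ENSG00000179094), an immediate responder to many stimuli and the most abundant period transcript here, was at 10.2 and 11.4 TPM in vehicle and at 3.98 and 3.38 TPM in JMC45, with no overlap. It fell by 1.33 (SE 0.13, limma adjusted p = 0.000160), or -0.23 relative to the median gene. It was not called on rescaled TPM (-0.17, adjusted p = 0.297) and its change was 0.04 after quantile normalization (adjusted p = 0.822).

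PER2 (ENSG00000132326), whose protein's phosphorylation and turnover help set the length of the cycle, was at 3.74 and 3.46 TPM in vehicle and at 2.42 and 2.68 TPM in JMC45. The groups did not overlap and the mean was 1.41-fold lower. It fell by 0.37 (SE 0.14, limma adjusted p = 0.0413), a call that was lost when any 1 of the 4 libraries was left out (adjusted p = 0.0637 to 0.186) or with the replicate number as a block (adjusted p = 0.0574). Relative to the median gene PER2 stood at 0.73, and it was called higher on rescaled TPM (0.64, SE 0.13, adjusted p = 0.00409) and after quantile normalization (0.86, SE 0.12, adjusted p = 0.00210).

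PER3 (ENSG00000049246), the period paralog that mouse clocks can run without, was at 0.50 and 0.58 TPM in vehicle and at 0.71 and 0.55 TPM in JMC45. The groups overlapped, and its mean of 0.58 TPM over all libraries kept it out of the test. With no filter on low values its change of 0.08 was not called (SE 0.12, adjusted p = 0.609).

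The cryptochromes, the strongest repressors of the CLOCK-BMAL1 dimer, had unlike values: CRY1 was lower in JMC45 and CRY2 was not. CRY1 (ENSG00000008405) was at 16.6 and 16.4 TPM in vehicle and at 7.42 and 7.76 TPM in JMC45. The values within each group lay close together and the groups were well apart. CRY1 fell by 1.03 (SE 0.10, limma adjusted p = 0.000130), which is 0.07 relative to the median gene. It was not called on rescaled TPM (0.21, adjusted p = 0.119) and was called higher after quantile normalization (0.32, SE 0.10, adjusted p = 0.0310).

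CRY2 (ENSG00000121671) was at 5.74 and 6.59 TPM in vehicle and at 9.58 and 6.93 TPM in JMC45. Both JMC45 values were above both vehicle values, but JMC45 replicate 2 was only just so. Its change of 0.36 was not called (SE 0.17, limma adjusted p = 0.0942). It lay above 96.1% of all genes tested, at 1.46 relative to the median gene. CRY2 was called higher on rescaled TPM (1.53, SE 0.17, adjusted p = 0.000236), after quantile normalization (1.65, adjusted p = 0.000586), without the mitochondrially encoded genes (0.50, adjusted p = 0.0292) and without JMC45 replicate 2 (0.56, adjusted p = 0.0368). Without JMC45 replicate 1 its change was 0.15 (adjusted p = 0.480), and with the summed TPM of those genes fixed across libraries it was -0.05 (adjusted p = 0.825). No gene of GENCODE release 29 overlaps CRY2.

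**Figure D2:**
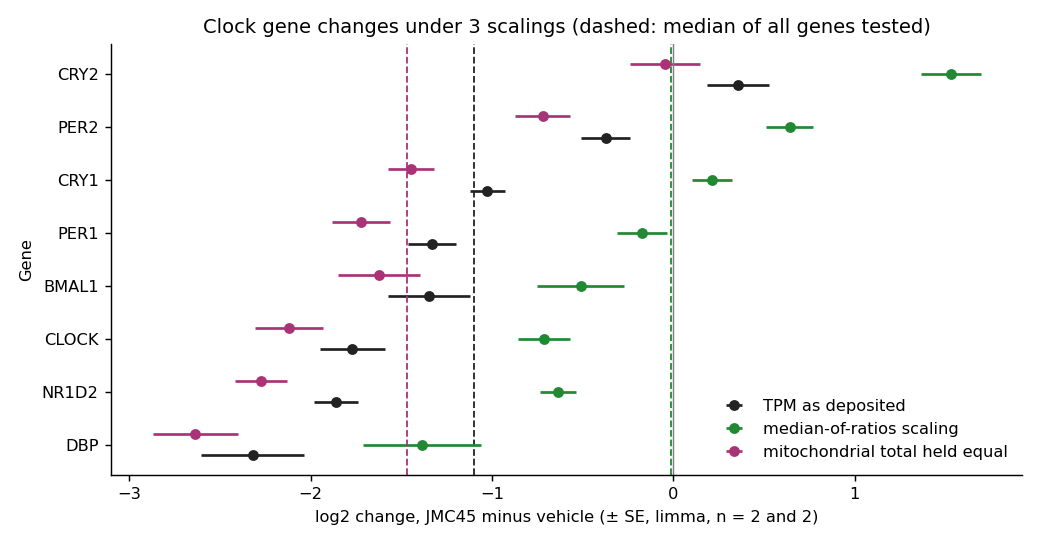
Log2 change of the 8 tested clock genes (JMC45 minus vehicle, points, with bars of 1 SE from limma, n = 2 and 2) on TPM as deposited, on rescaled TPM and with the summed TPM of mitochondrially encoded genes fixed across libraries; dashed lines mark the median of all genes tested under each scaling. DBP, NR1D2, CLOCK, BMAL1 and PER1 lie left of the dashed line and PER2, CRY1 and CRY2 right of it under all 3 scalings. CRY1 is close to the line on TPM as deposited and with the mitochondrially encoded total fixed.

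The REV-ERB genes were both lower in JMC45. NR1D2 (ENSG00000174738), the most abundant member in vehicle, was at 23.2 and 19.4 TPM there and at 5.22 and 5.02 TPM in JMC45. The groups were far apart, and the JMC45 libraries were close to each other. It fell by 1.86 (SE 0.12, limma adjusted p = 3.28e-05), or -0.76 relative to the median gene, and by 0.64 on rescaled TPM (SE 0.10, adjusted p = 0.00126).

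NR1D1 (ENSG00000126368), the haem-binding receptor REV-ERBα, was at 0.99 and 0.69 TPM in vehicle and at 0.050 and 0.040 TPM in JMC45. All 4 values were under 1 TPM, so it was not tested, and the mean was 18.7-fold lower, a ratio of values that are listed to 2 decimals. With no filter on low values it was called lower (-0.81 on log2(TPM + 1), SE 0.11, adjusted p = 0.00730), where 44.6% of 31100 genes were. That scale understates the change of such low values, and with a pseudocount of 0.1 the difference was -2.68.

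DBP (ENSG00000105516), a PAR-domain bZIP factor and output of the loop, was at 8.89 and 7.87 TPM in vehicle and at 0.40 and 1.52 TPM in JMC45. The groups did not overlap, but the JMC45 libraries were far from each other, as their mean of 0.96 ± 0.79 TPM (SD, n = 2) shows. DBP fell by 2.32 (SE 0.28, limma adjusted p = 0.000404), the largest decrease among the 8, and lay at -1.22 relative to the median gene. Its change ranged from -2.74 to -1.89 when a library was left out, and it was -1.39 on rescaled TPM (SE 0.32, adjusted p = 0.00752).

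The order of the levels changed with treatment. In vehicle the mean TPM ran from NR1D2 (21.3) through CRY1 (16.5), PER1 (10.8), CLOCK (8.55), DBP (8.38), CRY2 (6.17), BMAL1 (3.69), PER2 (3.60) and NR1D1 (0.84) to PER3 (0.54), and the ranges of CLOCK and DBP, and of BMAL1 and PER2, overlapped. In JMC45 it ran from CRY2 (8.26) through CRY1 (7.59), NR1D2 (5.12), PER1 (3.68), PER2 (2.55), CLOCK (1.78), DBP (0.96), BMAL1 (0.85) and PER3 (0.63) to NR1D1 (0.045). There CRY2 and CRY1 overlapped, as did DBP and BMAL1, and BMAL1 and PER3.

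For a given set of genes, a rank within a library does not depend on how that library was scaled. The set itself does, as its genes were chosen by their mean TPM over all libraries. Genes that passed through their vehicle values alone fill low ranks in JMC45, and their part in the ranks below was not tested. Among the 14018 tested genes, CRY2 stood at the 28.3 and 34.5 percentiles of TPM in vehicle and at the 66.7 and 60.8 percentiles in JMC45. PER2 went from the 19.0 and 19.8 percentiles to the 35.9 and 39.8 percentiles. CRY1 stood at the 55.6 and 57.7 percentiles in vehicle and slightly higher in JMC45, at 61.4 and 63.3. The ranks of these 3 genes were higher in both JMC45 libraries than in either vehicle library. NR1D2 went the other way, from the 64.6 and 62.0 percentiles to the 53.7 and 53.8 percentiles. CLOCK went from 41.8 and 36.6 to 31.1 and 27.6, and DBP from 38.9 and 38.7 to 5.74 and 26.6. The ranks of PER1 and BMAL1 overlapped between the groups.

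**Figure D3:**
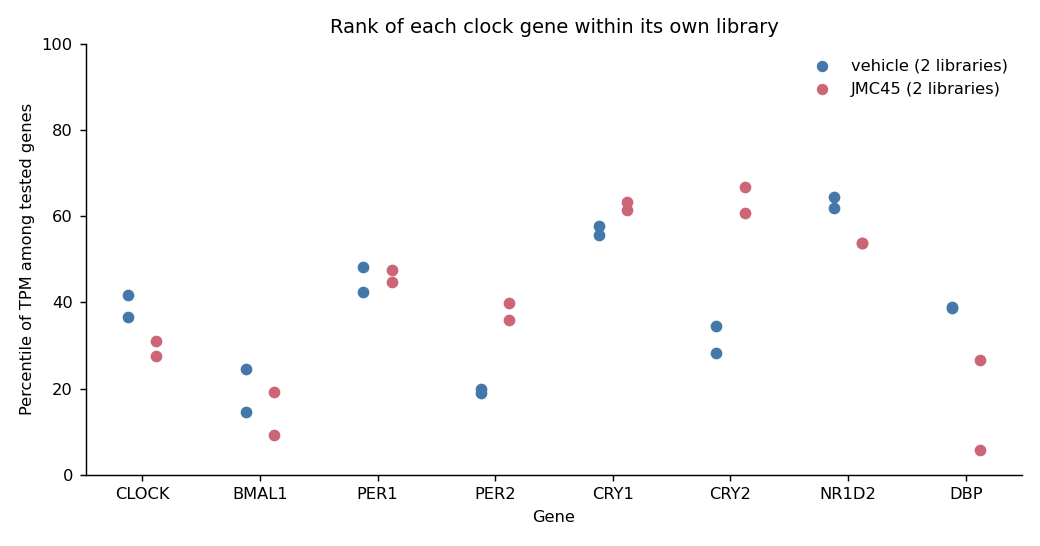
Percentile of each clock gene's TPM among the 14018 tested genes of the same library, with points for the 2 vehicle and 2 JMC45 libraries. CRY2 moves from 28.3 and 34.5 to 66.7 and 60.8, while DBP moves from 38.9 and 38.7 to 5.74 and 26.6.

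Ratios between members within a library are likewise free of its scaling. With 2 libraries against 2 an exact permutation test cannot go below p = 0.33, so the 6 ratios computed are given as values. CRY1 transcripts outnumbered CRY2 transcripts by ratios of 2.90 and 2.48 in vehicle, whereas the ratios were 0.774 and 1.12 in JMC45. The PER1 to PER2 ratio was 2.72 and 3.29 in vehicle and 1.65 and 1.26 in JMC45. NR1D1 to NR1D2 was 0.0427 and 0.0356 in vehicle and 0.00958 and 0.00797 in JMC45, and PER2 to PER3 was 7.48 and 5.97 in vehicle and 3.41 and 4.87 in JMC45. None of these 4 ratios overlapped between the groups. How often the ratios of other gene pairs do so was not computed, so this count has no background to be read against. NR1D1 and PER3 were under 1 TPM in every library, so the ratios that hold them rest on very low values. The CLOCK to BMAL1 ratio did, at 3.26 and 1.65 in vehicle and 1.73 and 2.84 in JMC45.

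Summed over the 5 PER and CRY genes, the repressor transcripts came to 36.8 and 38.4 TPM in vehicle and 24.1 and 21.3 TPM in JMC45. Their ratio to the summed activators CLOCK and BMAL1 was 2.85 and 3.32 in vehicle and 7.75 and 9.91 in JMC45. These PER and CRY transcripts thus took a larger part relative to CLOCK and BMAL1 in both JMC45 libraries. That holds for this choice of genes only. The repressors BHLHE41 and CIART and the activator paralogs NPAS2 and BMAL2 are not in the sums. BHLHE41 was at 18.9 and 12.3 TPM in vehicle and 0.57 and 0.39 TPM in JMC45, and BMAL2 at 4.97 and 3.92 against 3.89 and 4.08 TPM. Counting such genes would work against the rise. CRY2 made up 15.6% and 17.2% of the repressor sum in vehicle and 39.7% and 32.5% in JMC45. CRY1 went from 45.2% and 42.6% to 30.8% and 36.4%, and PER1 from 27.6% and 29.7% to 16.5% and 15.9%. PER2 overlapped between the groups, at 10.2% and 9.01% against 10.04% and 12.6%, and PER3 held at most 2.95%.

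**Figure D4:**
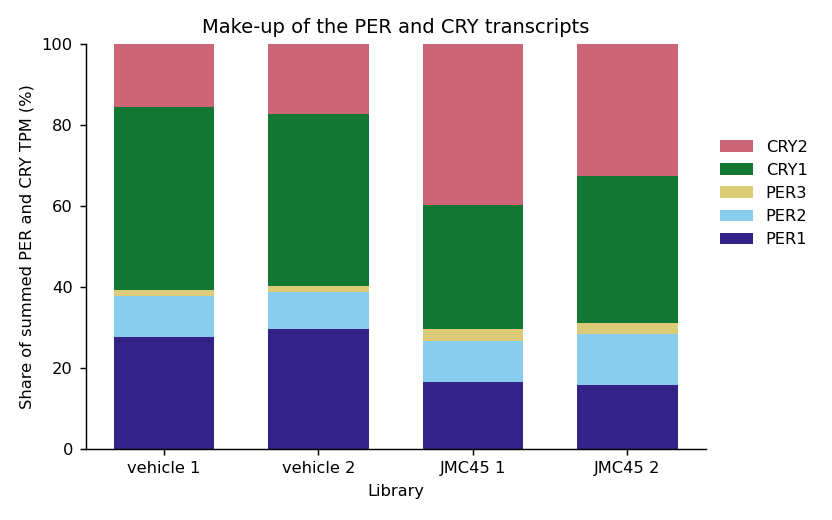
Share of each gene in the summed TPM of PER1, PER2, PER3, CRY1 and CRY2, as stacked bars for each of the 4 libraries. CRY2 takes 15.6% and 17.2% in vehicle and 39.7% and 32.5% in JMC45.

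The members differ widely in their gene structure. In GENCODE release 29 CLOCK (chromosome 4) spans 119.2 kb, BMAL1 (chromosome 11) 110.6 kb and CRY1 (chromosome 12) 102.5 kb, while DBP (chromosome 19) spans 7.40 kb, NR1D1 (chromosome 17) 7.90 kb and PER1 (chromosome 17) 16.0 kb. PER2 (chromosome 2), CRY2 (chromosome 11) and NR1D2 (chromosome 3) lie between, at 46.1, 36.1 and 35.4 kb, as does PER3 (chromosome 1) at 60.9 kb. The log2 changes were -1.77 for CLOCK, -1.35 for BMAL1 and -1.03 for CRY1, which have the longest spans. They were -0.37 for PER2, 0.36 for CRY2 (not called) and -1.86 for NR1D2, and -1.33 for PER1 and -2.32 for DBP, which have short spans. Whether span and change are related was not tested.

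Several members share their locus with a gene on the opposite strand, and the sources used here do not say whether strand was used in the quantification, so reads of such pairs may be split between them. SPHK2, a sphingosine kinase gene that overlaps DBP, was at 8.91 and 9.54 TPM in vehicle and 1.22 and 1.68 TPM in JMC45 (log2 change -2.07, SE 0.15, limma adjusted p = 4.75e-05). NKIRAS1, which overlaps NR1D2, fell by 1.70 (SE 0.16, adjusted p = 0.000129), TMEM165, which overlaps CLOCK, by 1.45 (SE 0.09, adjusted p = 2.78e-05), and THRA, the thyroid hormone receptor gene that overlaps NR1D1, by 1.06 (SE 0.13, adjusted p = 0.000349). These 4 neighbours fell, as did 80.7% of all genes tested. AC129492.3 (ENSG00000263620), a coding gene that overlaps PER1 on the same strand, was not called (-0.49, SE 0.20, adjusted p = 0.0563). On rescaled TPM SPHK2 (-1.03) and NKIRAS1 (-0.72) were still called lower, while TMEM165 (-0.15) and THRA (0.01) were not called. An antisense gene at CLOCK, ENSG00000272969, went the other way. It was at 0.080 and 0.39 TPM in vehicle and at 2.77 and 2.12 TPM in JMC45, and it rose by 1.49 (SE 0.20, limma adjusted p = 0.000564), and by 2.08 on rescaled TPM. These neighbours other than THRA were looked up after the clock gene values were seen.

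Other genes of the pathway were counted in 5 lists, to be read against the 80.7% of all tested genes that were called lower, or 35.5% lower and 34.9% higher on rescaled TPM. In the order below, the rescaled list medians were -0.53, -0.01, -0.17, 0.16 and -0.45, beside -0.34 for the clock genes and -0.02 for all genes tested. With a pseudocount of 0.1 the chromatin and RNA-binding partners had a median of -1.18, beside -1.34 for all genes tested. Of 12 other clock transcription factors 8 were tested, and 6 fell and none rose, with a median change of -1.27. BHLHE41, an E-box repressor also known as DEC2, went from 15.6 ± 4.63 to 0.48 ± 0.13 TPM (SD, n = 2), a log2 change of -3.46. CIART, a repressor of the CLOCK-BMAL1 dimer, fell by 1.92. NFIL3, which opposes DBP at D-boxes, fell by 1.46, a call lost after quantile normalization (-0.45, adjusted p = 0.0720). On rescaled TPM 4 of the 8 fell and 2 rose, with BHLHE41 at -2.58, CIART at -0.98 and NFIL3 at -0.79. RORA, RORB, BHLHE40 and HLF were too low to test, with mean TPM of at most 0.48.

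Of 14 kinases and phosphatases that act on clock proteins, all tested, 13 fell, and the median was -1.28. On rescaled TPM 3 fell and 4 rose. The phosphatase subunit PPP1CC went from 174.5 ± 9.84 to 30.1 ± 0.62 TPM (log2 change -2.50), PRKAA1, an AMPK subunit that phosphorylates cryptochromes, fell by 1.74, CSNK2A1 by 1.63 and CSNK1A1, a casein kinase, by 1.54. Rescaled, PPP1CC was at -1.16, PRKAA1 at -0.42 and CSNK2A1 at -0.30, all called lower, while CSNK1A1 was not called (-0.20, adjusted p = 0.0920). PRKAA2 (-0.42, adjusted p = 0.0692) was not called, nor was it on rescaled TPM (0.29, adjusted p = 0.141). Of 12 ubiquitin ligase and deubiquitinase genes 10 were tested and 9 fell, with a median of -1.34, and on rescaled TPM 5 fell and 4 rose. CUL1, the scaffold of SCF ligases, went from 50.8 ± 3.75 to 4.71 ± 0.25 TPM (-3.18). USP7, a deubiquitinase that stabilises CRY1, fell by 2.72 and FBXW11, an F-box protein that recognises phosphorylated PER, by 2.03. Rescaled, CUL1 was at -1.94, USP7 at -1.46 and FBXW11 at -0.79. The SCF adaptor SKP1 was not called, at 465.5 and 458.4 TPM in vehicle and 454.2 and 452.2 TPM in JMC45. On rescaled TPM SKP1 was called higher (1.32, SE 0.11, limma adjusted p = 8.99e-05). PRKAA2 and SKP1 were named after their values were seen.

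Of 16 chromatin and RNA-binding partners 15 were tested and 14 fell, with a median of -1.15, and on rescaled TPM 7 fell and 7 rose. SIN3A, a corepressor scaffold, fell by 3.18, the deacetylase SIRT1 by 2.69, the coactivator EP300 by 2.51 and EZH2 by 2.42. The rescaled changes of these 4 were -2.01, -1.61, -1.35 and -1.12 in the same order. KAT2B (-0.22, adjusted p = 0.163) was not called on TPM but was called higher when rescaled (0.93, SE 0.12, limma adjusted p = 0.000516). Of 7 outputs under clock control, all tested, 5 fell, with a median of -1.42, and on rescaled TPM 4 fell and 1 rose. WEE1, the mitotic entry kinase, went from 40.5 ± 3.10 to 4.39 ± 0.028 TPM (-2.94), NAMPT, the rate-limiting enzyme of NAD salvage, from 244.8 ± 26.1 to 44.8 ± 1.61 TPM (-2.42), ALAS1, which opens haem synthesis, fell by 2.04 and KLF9 by 1.42. Rescaled, WEE1 was at -1.72, NAMPT at -1.08, ALAS1 at -0.76 and KLF9 at -0.45, and the KLF9 call was lost after quantile normalization (-0.20, adjusted p = 0.190). PPARA (-0.59, adjusted p = 0.0560) and TSC22D3 (-0.09, adjusted p = 0.368) were not called and, like KAT2B, were named after their values were seen. Rescaled, TSC22D3 was called higher (1.17, SE 0.11, limma adjusted p = 0.000123) and PPARA was not called (0.43, SE 0.18, adjusted p = 0.0662).

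**Figure D5:**
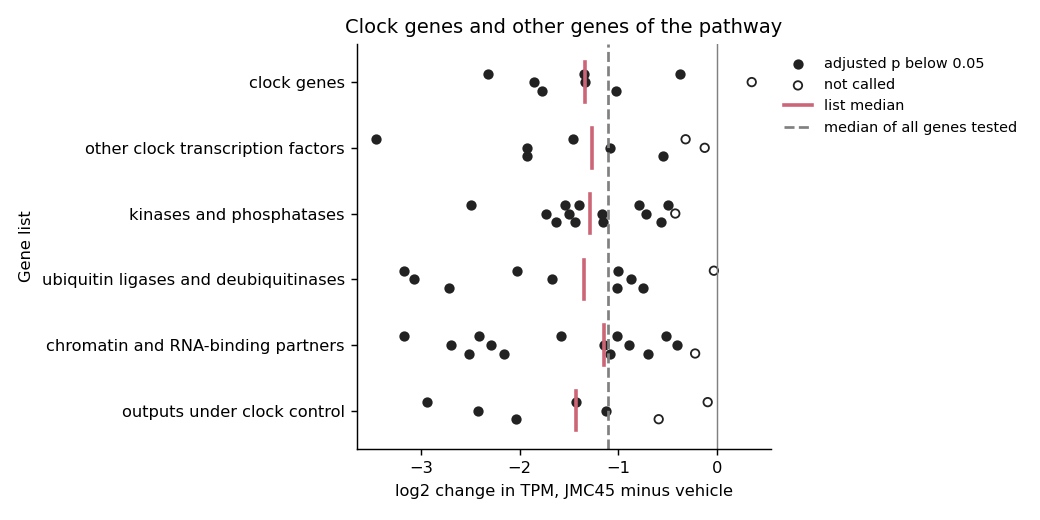
Log2 change in TPM (JMC45 minus vehicle) of each tested gene, by list, with filled points for genes past an adjusted p of 0.05, open points for the others, a vertical bar for each list's median and a dashed line at the median of all genes tested (-1.10). On TPM as deposited, all list medians lie below that line, from -1.15 to -1.42, and CRY2 is the only point above 0. This place of the medians does not hold for every list on rescaled TPM, which is not shown.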

How the data were processed

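RNA of 22Rv1 cells was sequenced in 2 vehicle and 2 JMC45 libraries. Per the file headers, the authors deposited TPM, listed by Ensembl gene for every library. Tools named in the submitters' processing notes are StringTie, HISAT2 and fastp, with neither versions nor roles, and the sources used here give no build or annotation. The library kit marks strand and selects poly(A) RNA, per the labels' protocols. Columns headed as control were matched to the vehicle samples of the same number. Lines without values (50) were dropped, leaving 63241 genes.

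The test was limma 3.58.1 (R 4.3.3, two-sided, with intensity trend) on log2(TPM + 1), run for the 14018 genes whose TPM averaged 1 or more, with Benjamini-Hochberg adjustment over all of them and 0.05 as the threshold. "Rose" and "fell" are used only past it. The test was also run on simulated data in which most genes were given no change. That run does not cover a shift of most genes such as the one seen here. The clock members and lists were chosen with earlier results of these data known. All 10 members are named, and in each list up to 4 genes with the largest change past the threshold. Of the latter, 2 are not reported here. Alternatives were other filters (none, or a mean of 5), a pseudocount of 0.1, scaling by median of ratios, quantile normalization, leaving out the mitochondrially encoded genes or each library, no trend, and a replicate block. Fixing the mitochondrially encoded total was added after seeing the data. Gene spans come from GENCODE 29. Python 3.11.15 with numpy 2.4.6, pandas 2.3.3 and matplotlib 3.10.9 served for summaries.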

Additional observations from a re-analysis of the deposited data

How the results depend on the processing

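Scaling changed the counts most. With median-of-ratios scaling there were 4888 genes called up and 4981 down, with quantile normalization 4716 and 4603, and with the mitochondrially encoded total fixed 181 up. Of the clock genes, median-of-ratios scaling called 2 higher and 3 lower, quantile normalization 3 and 3, and leaving out the mitochondrially encoded genes called 1 higher, as did leaving out JMC45 replicate 2. At a mean TPM of at least 5, where 5 clock genes were tested, 4 were lower. Without 1 library in turn, the clock count was 6 lower in each case and 0 to 1 higher. A group then has a lone library, which is assumed to vary like the others.

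In the other lists, median-of-ratios scaling called 2 transcription factors higher, 4 kinases and phosphatases higher and 3 lower, 4 ubiquitin genes higher and 5 lower, 7 partners higher and 7 lower, and 1 output higher. Quantile normalization called 2 transcription factors higher and 3 lower, 2 kinases and phosphatases higher and 7 lower, 3 ubiquitin genes higher, 2 partners higher and 9 lower, and 2 outputs higher and 3 lower. At a mean TPM of at least 5, 2 transcription factors and 3 outputs were lower, because fewer genes were tested.

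Direction turned for PER1 after quantile normalization (0.037), for PER2 and CRY1 after median-of-ratios scaling (0.64 and 0.21) and quantile normalization (0.86 and 0.32), for THRA in the same settings (0.013 and 0.26), and for CRY2 with the mitochondrially encoded total fixed (-0.046). The PER2 call was also lost with no filter on low values (adjusted p = 0.0740) and without the mitochondrially encoded genes (adjusted p = 0.128). Beyond what the scalings themselves do to all genes, the cause was not tested.

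Deviations of same-numbered libraries correlated at r = -0.0471 across genes, so the numbers were not taken to pair the libraries. With the replicate block 613 genes were higher and 11380 lower, and 6 clock genes were lower, PER2 being the call that was lost. When a library was left out, the log2 difference of the CLOCK to BMAL1 ratio ranged from -0.56 to 0.42 and that of the CRY1 to CRY2 ratio from -1.79 to -1.26. Depth is unknown, so the precision of low values such as those of NR1D1 and PER3 cannot be given.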
